A study of Mus musculus with 24 samples.

Results

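The 9 genes described here carry the main steps of retinoid storage and metabolism in the liver, and they were taken as the rows of the count table with the gene symbols Rbp4, Ttr, Lrat, Rdh10, Dhrs3, Aldh1a1, Aldh1a2, Cyp26a1 and Bco1. They are 9 of 56205 gene rows, and all 9 passed the filter on low counts, Aldh1a2 through the MCD libraries alone. The rule used their symbols alone, though the list was drawn up with earlier results of these data known.

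The table holds RNA-Seq counts from whole livers of 24 C57BL/6J mice. For 20 weeks, 12 of them ate the methionine-choline deficient diet (MCD), and the other 12 ate the control diet. MCD feeding is a dietary model of fatty, inflamed and scarred liver. Both diets were given to males and females, 6 of each per diet, but no label ties a library to a sex, so no diet effect could be given within 1 sex. All animals shared the same wild-type strain, the diet was the only treatment, and each library was 1 mouse. The age of the animals at the start of the MCD study and the vitamin A content of either diet were not given in the sources used here. In the methods the MCD diet is a high-fat formula with a control diet of its own, whereas 1 label calls the control a chow.

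Vitamin A is the collective name for retinol and its derivatives. The liver is its main store: hepatocytes take up dietary retinoid and release retinol into the blood bound to RBP4 and transthyretin, and quiescent hepatic stellate cells (HSCs) hold most of the reserve as retinyl esters in lipid droplets, which they lose when they become fibrogenic. Retinol is oxidized reversibly to retinal and then irreversibly to retinoic acid, the ligand of the RAR nuclear receptors, and CYP26 enzymes clear retinoic acid. β-Carotene, the plant precursor, is cleaved to retinal.

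RefSeq (GRCm38.p6) gave a promoter for 7 of the 9 genes, not for Rdh10 and Ttr. Because RAR and its partner RXR bind direct repeats of a 6-base half-site, the promoters were searched on both strands for the half-sites AGGTCA and AGTTCA, and for the variants GGGTCA and GGTTCA, repeated in the same direction with 1, 2 or 5 bases between. Each window ran from 250 bases before to 50 bases after the start site. A repeat was present for Cyp26a1 and Bco1, both on the strand opposite to the gene, and not for the other 5. The Cyp26a1 repeat has 5 bases between its half-sites and begins 32 bases before the start site. The Bco1 repeat has 1 base between and begins 56 bases before. Among 32851 RefSeq promoters of the same length, 32 (0.0974%) held the 5-base form, 73 (0.222%) the 1-base form, 88 (0.268%) the 2-base form and 193 (0.588%) any of them. Among the 44 vitamin A pathway genes with a promoter, Rarb, the gene of retinoic acid receptor β, was the only other match, with the 5-base form 53 bases before its start site. The 250 bases before the start site are shown 5′ to 3′ for both genes with a match and for Aldh1a2, the member with the largest fold change, where these letters do not occur; capitals mark the half-sites, read on the gene's strand. The windows are chr19:37697558-37697807 for Cyp26a1, chr8:117095615-117095864 for Bco1 and chr9:71215539-71215788 for Aldh1a2, all on the plus strand. A match is a run of letters that does not tell which receptor, if any, binds it, and no binding was measured here.
Cyp26a1: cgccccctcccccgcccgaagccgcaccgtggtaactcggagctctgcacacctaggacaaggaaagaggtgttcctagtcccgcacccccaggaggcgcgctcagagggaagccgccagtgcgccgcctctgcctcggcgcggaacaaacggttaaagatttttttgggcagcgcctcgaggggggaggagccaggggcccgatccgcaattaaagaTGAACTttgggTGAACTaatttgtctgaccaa
Bco1: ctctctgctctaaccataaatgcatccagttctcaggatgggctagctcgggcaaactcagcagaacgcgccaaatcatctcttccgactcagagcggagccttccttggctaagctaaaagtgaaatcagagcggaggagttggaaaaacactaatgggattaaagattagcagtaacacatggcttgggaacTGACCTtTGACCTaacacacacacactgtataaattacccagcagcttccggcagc
Aldh1a2: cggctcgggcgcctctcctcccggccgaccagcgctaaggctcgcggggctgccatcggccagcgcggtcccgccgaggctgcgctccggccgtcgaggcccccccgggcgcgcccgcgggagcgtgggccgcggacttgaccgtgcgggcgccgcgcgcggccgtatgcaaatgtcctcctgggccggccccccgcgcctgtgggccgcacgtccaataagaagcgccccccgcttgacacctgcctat

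Of the 9 genes, 2 were higher in MCD livers (Aldh1a2 and Cyp26a1), 4 were lower (Ttr, Lrat, Rdh10 and Bco1) and 3 did not pass (Rbp4, Dhrs3 and Aldh1a1). A gene was called at a false discovery rate (FDR) ≤ 0.01 and |log2FC| > 0.5 in edgeR's quasi-likelihood test, where log2FC is the log2 fold change of MCD over control. With this rule 38.3% of the 14109 genes tested were called, 19.2% higher and 19.1% lower, so 6 of 9 is to be read against a liver in which many genes moved. The median log2FC was -0.21 over the 9 genes and -0.10 over all genes tested. The groups did not overlap for 3 of the 9 genes, 1 higher and 2 lower, against 14.4% of all genes tested, 9.50% higher and 4.88% lower. Aldh1a2, the 1 higher gene here, entered the test through the MCD libraries alone. Its call and its separation are included in these counts but are descriptions, not support from the test. These are bulk values, in which fewer cells of a type and less RNA per cell cannot be told apart.

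**Figure D1:**
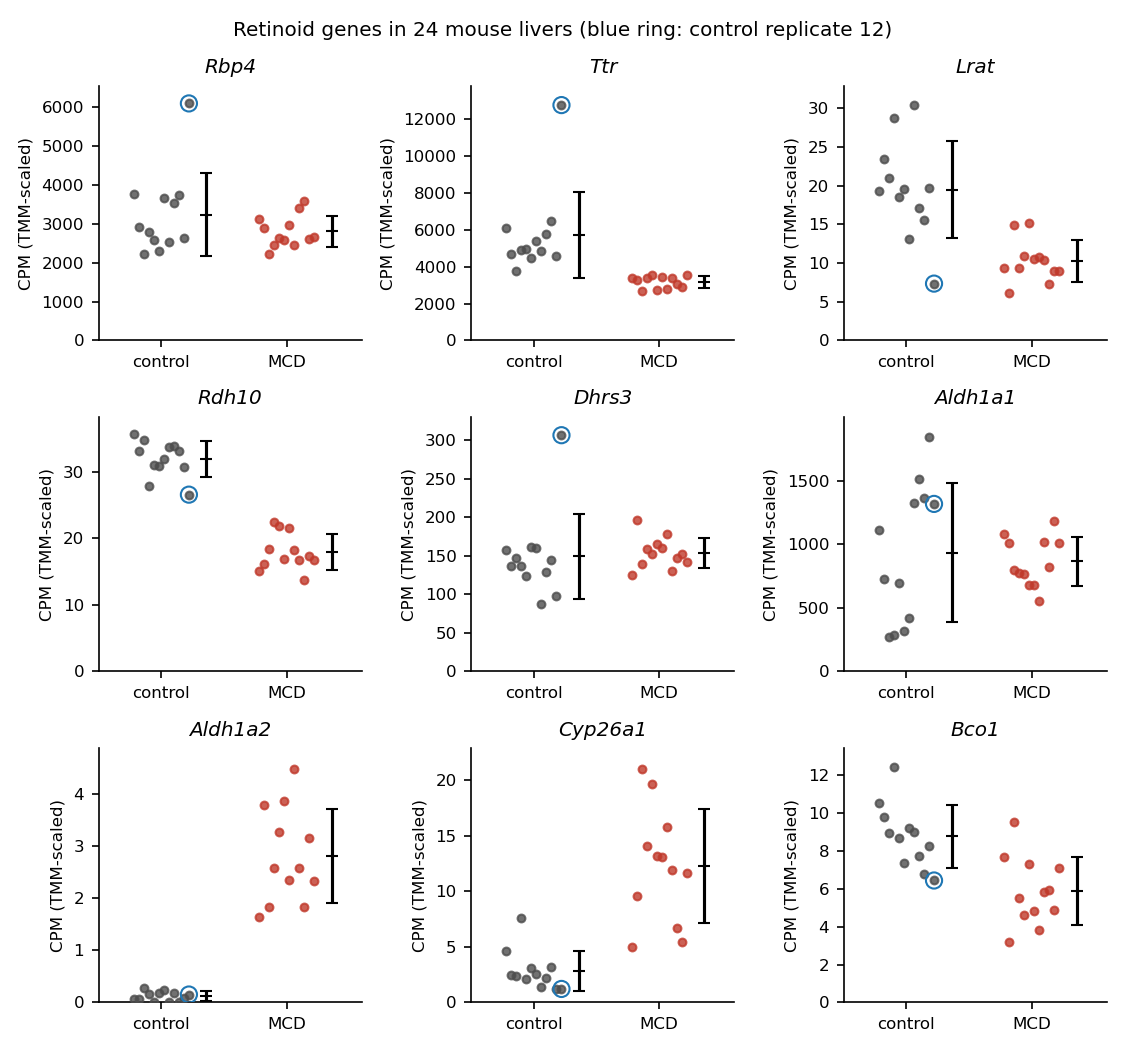
Each panel plots 1 gene as CPM (read counts scaled to a common library size, TMM, linear axis from 0) in the 12 control and 12 MCD livers, with the mean and SD beside each group. All MCD points of Aldh1a2 lie above the control points, all MCD points of Ttr and Rdh10 lie below them, and the ringed control replicate 12 is the highest point for Rbp4, Ttr and Dhrs3 and the lowest control point for Lrat, Rdh10 and Bco1.

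The libraries held 16388650 to 24915175 counts. The TMM factors, which correct for the make-up of a library, ran from 0.642 to 0.973 in control livers and from 1.07 to 1.26 in MCD livers and thus did not overlap between the diets. Control replicate 12 stood apart, with the lowest factor and a median Spearman correlation of 0.926 with the other control libraries. MCD replicate 4 carried adipocyte transcripts, with a summed adipocyte marker level of 118 CPM against 10.7 CPM or less in the control livers. The labelled tissue was checked by hepatocyte markers, which were abundant in all 24 libraries: their summed level was 79687 to 187972 CPM in control and 58212 to 85347 CPM in MCD livers.

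The carriers of retinol in blood are both secreted by hepatocytes. RBP4 binds retinol itself, and transthyretin, the product of Ttr, holds the loaded RBP4 in the circulation. Ttr was lower in MCD livers: its level was 3765, 4933 and 12766 CPM (lowest, median and highest) in control and 2667, 3337 and 3539 CPM in MCD livers. On this scale every MCD liver lay below every control liver, and the MCD values were held within a narrow band; per library total, without TMM factors, 7 of the 12 did. The means were 5726 ± 2341 (SD, n = 12) and 3183 ± 327 CPM (SD, n = 12), a log2FC of -0.85 (SE 0.14, edgeR FDR 1.38e-05). The control mean rested in part on replicate 12, and without it the log2FC was -0.64 (edgeR FDR 2.21e-07), with all 12 MCD livers still below.

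Rbp4 was not called. Its level was 2226, 2852 and 6100 CPM in control and 2227, 2653 and 3595 CPM in MCD livers, and the whole MCD range lay within the control range, whose upper end was set by control replicate 12 (3775 CPM was the highest of the other 11 controls). The means were 3236 ± 1067 and 2804 ± 408 CPM (SD, n = 12 each), a log2FC of -0.21 (SE 0.14, 95% confidence interval -0.49 to 0.07, edgeR FDR 0.187). Without control replicate 12, the highest Rbp4 value, the log2FC was -0.05 (edgeR FDR 0.660). The MCD liver with adipocyte transcripts was not high in Rbp4, which fat cells also make, at 2463 CPM.

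The ratio of the carriers within a library does not depend on scaling. On the log2 scale, Rbp4 counts over Ttr counts were -1.07, -0.79 and -0.55 (lowest, median and highest) in control and -0.47, -0.18 and 0.22 in MCD livers. The groups did not overlap, so that each MCD liver held more Rbp4 transcript per Ttr transcript than any control liver. The mean log2 ratio was -0.81 ± 0.15 in control and -0.19 ± 0.19 in MCD livers (SD, n = 12 each). The hepatocyte markers, Ttr and Rbp4 left out, gave 0 higher, 5 lower and 4 not called of 9, with albumin (Alb) at a log2FC of -0.62 (SE 0.11, edgeR FDR 3.8e-05). Whether hepatocyte content had a part in the carrier values was not tested.

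**Figure D2:**
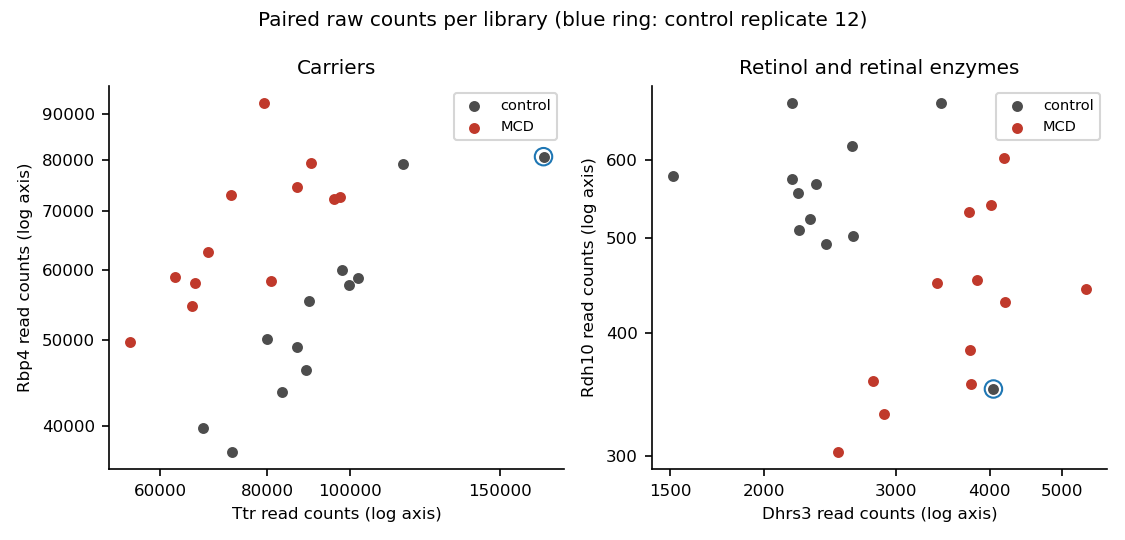
Raw read counts per library on log axes, Rbp4 against Ttr (left) and Rdh10 against Dhrs3 (right), 1 point per liver. The groups overlap on each axis alone; on the left the ratio separates them, with log2 Rbp4/Ttr from -0.47 to 0.22 in MCD and -1.07 to -0.55 in control livers, and on the right the ratio separates all but the ringed control replicate 12.

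Storage was represented by Lrat, lecithin-retinol acyltransferase, which makes the retinyl esters of the lipid droplets and in liver is a marker of HSCs. Lrat was lower in MCD livers. Its level was 7.34, 19.5 and 30.4 CPM in control and 6.11, 9.90 and 15.2 CPM in MCD livers. All 12 MCD livers were below the control median, but only 2 were below every control liver, because control replicate 12 had 7.34 CPM, and 10 of 12 were below the other 11 controls. The means were 19.5 ± 6.27 and 10.3 ± 2.66 CPM (SD, n = 12 each), a log2FC of -0.93 (SE 0.17, edgeR FDR 3.63e-05). The value without control replicate 12 was -0.97 (edgeR FDR 1.8e-06).

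Other HSC markers did not move as 1 group. Of 9, the transcription factor gene Hand2, the intermediate filament gene Des and the growth factor receptor gene Pdgfrb were higher. Ecm1, which encodes a secreted matrix protein, was lower, and 5 did not pass. Of these 5, the quiescence marker Reln (log2FC -0.40, edgeR FDR 0.00243) fell short of the fold limit alone. Ngfr (-0.44, edgeR FDR 0.0114) and Colec11 (-0.25, edgeR FDR 0.0263) missed both limits, as did Rgs5 (-0.06) and the quiescence marker Lhx2 (0.03). Their summed level was 292 to 563 CPM in control and 270 to 397 CPM in MCD livers, and none was at 0 in any liver. The 8 myofibroblast markers were all higher, with a summed level of 45.0 to 306 CPM in control and 535 to 1053 CPM in MCD livers. The part of HSC number or state in the Lrat value was not tested.

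The retinol to retinal step is run by opposing enzymes. RDH10 oxidizes retinol to retinal, whereas DHRS3 reduces retinal back to retinol, and the proteins bind and activate each other. Rdh10 was lower: its level was 26.6, 32.5 and 35.7 CPM in control and 13.8, 17.1 and 22.4 CPM in MCD livers. On this scale every MCD liver lay below every control liver, whereas per library total 2 of 12 did, control replicate 12 being the lowest control. The means were 31.9 ± 2.7 and 17.9 ± 2.73 CPM (SD, n = 12 each), and the log2FC of -0.83 had the smallest SE of the 9 genes (0.08, edgeR FDR 7.77e-10). No other member varied so little among control livers, with a coefficient of variation of 8.45%.

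Dhrs3, a gene that retinoic acid induces in many tissues, was not called. Its level was 88.0, 141 and 306 CPM in control and 125, 152 and 196 CPM in MCD livers, with full overlap. The means were 149 ± 54.6 and 154 ± 19.8 CPM (SD, n = 12 each), a log2FC of 0.05 (SE 0.14, 95% confidence interval -0.24 to 0.33, edgeR FDR 0.790). Without control replicate 12, whose 306 CPM was the highest value, 3 MCD livers lay above every control liver and the log2FC was 0.22 (edgeR FDR 0.0436), still short of the threshold. Rdh10 counts over Dhrs3 counts, a ratio chosen after the values were seen, had a mean log2 of -2.16 ± 0.51 in control and -3.10 ± 0.25 in MCD livers (SD, n = 12 each). The ranges, -3.53 to -1.39 and -3.60 to -2.80, overlapped through control replicate 12.

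Retinal is oxidized to retinoic acid by the ALDH1A enzymes, of which ALDH1A1 is the abundant form of adult hepatocytes and ALDH1A2 the main form of the embryo and, in adult tissues, of mesothelial, stromal and some dendritic cells. Aldh1a2 was higher in MCD livers. In raw counts, 0, 2 and 5 reads (lowest, median and highest) were found in control and 33, 60.5 and 105 reads in MCD livers. Every MCD liver lay above every control liver, 3 of the 12 control livers had no read, and 10 had 3 reads or fewer. The level rose from 0.118 ± 0.0952 to 2.80 ± 0.903 CPM (SD, n = 12 each), a log2FC of 4.48 (SE 0.32). The gene passed the low-count filter through the 12 MCD libraries, with 0 control libraries at its cutoff, so it could enter the test only if it differed, and its values are given as a description rather than as support from the test. All control livers together gave 25 reads against 810 in MCD livers, so how large the fold is depends on a handful of control reads, while its direction was the same in 12 of 12 MCD livers. A floor of 3 counts corresponds to 0.134 to 0.227 CPM over the control libraries, for counting error alone, and the control mean was below it in each.

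Markers of the cell types that may make Aldh1a2 moved with it in part. Of the mesothelial markers, Wt1 rose from 0.810 ± 0.673 to 3.58 ± 1.18 CPM (SD, n = 12 each), with a log2FC of 2.12 (SE 0.34). Wt1 had 1, 10 and 43 reads (lowest, median and highest) in control livers, too few to pass the low-count filter there. Its value is thus a description. Gpm6a rose as well, while Msln and Upk3b had log2FC of 0.10 and -0.27 and did not pass. The remaining 3 mesothelial markers, Upk1b, Lrrn4 and Muc16, were too low to test and at 0 in some livers, and the summed level of all 7 was 1.67 to 8.69 CPM in control and 5.98 to 16.9 CPM in MCD livers. Of 5 dendritic cell markers, Flt3 and Xcr1 were higher and 3 did not pass, with a summed level of 8.93 to 19.2 CPM in control and 10.2 to 17.0 CPM in MCD livers. Flt3 and Xcr1 each had 2 reads in their lowest control liver and could not pass the filter in control livers alone. Their calls are descriptions too. All 6 general macrophage markers were higher, 112 to 321 CPM summed in control and 1014 to 2460 CPM in MCD livers, whereas of 6 markers of Kupffer cells, the resident macrophages, 5 were lower and none higher, 149 to 445 and 81.3 to 297 CPM summed. All 5 cholangiocyte markers were higher (30.1 to 146 and 452 to 904 CPM summed), and 5 of 6 endothelial markers were lower (190 to 283 and 105 to 175 CPM summed). Which cells carried the Aldh1a2 reads was not tested.

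Aldh1a1 was not called and was the most variable of the well-expressed members among control livers. Its level was 267, 918 and 1844 CPM in control and 551, 807 and 1184 CPM in MCD livers, so that the MCD range lay inside the control range. The means were 932 ± 546 and 864 ± 192 CPM (SD, n = 12 each), a log2FC of -0.11 (SE 0.27, 95% confidence interval -0.66 to 0.45, edgeR FDR 0.740). The interval reached past the fold limit on its lower side. With a score of sex-linked transcripts as covariate, the SE fell to 0.17 and the log2FC was 0.095 (edgeR FDR 0.645). Reads of Aldh1a1 can be shared with its paralog Aldh1a7, with which 151 of its 2309 annotated 50-base stretches (6.54%) are identical, and Aldh1a7 was not called either (log2FC -0.41, edgeR FDR 0.127). Despite its rise Aldh1a2 stayed a small share of the pair: its counts were 0.0266 ± 0.0341% of Aldh1a1 counts in control and 0.351 ± 0.183% in MCD livers (SD, n = 12 each), a quantity chosen after the values were seen.

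Cyp26a1, the retinoic acid hydroxylase of hepatocytes and a classic retinoic acid target gene, was higher in MCD livers. Its level was 1.21, 2.40 and 7.58 CPM in control and 4.98, 12.5 and 21 CPM in MCD livers. All 12 MCD livers were above the control median and 9 were above every control liver. The other 3, MCD replicates 1, 10 and 11, had 4.98, 6.72 and 5.41 CPM and fell below the 7.58 CPM of control replicate 4. The means were 2.83 ± 1.78 and 12.2 ± 5.11 CPM (SD, n = 12 each), a log2FC of 2.12 (SE 0.28, edgeR FDR 3.17e-07). With 582 reads in all control livers and 3598 in all MCD livers, this gene rested on more reads than Aldh1a2. It is the member whose promoter, printed above, holds the repeat with 5 bases between.

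Bco1, which cleaves β-carotene into retinal, was lower by a smaller margin. Its level was 6.43, 8.81 and 12.4 CPM in control and 3.20, 5.69 and 9.54 CPM in MCD livers. In 8 of the 12 MCD livers it was below every control liver, and 1 MCD liver was above the control median. The means were 8.76 ± 1.67 and 5.86 ± 1.79 CPM (SD, n = 12 each), a log2FC of -0.58 (SE 0.15, edgeR FDR 0.00113). This call lay close to the fold limit, and it was lost without MCD replicate 2 (log2FC -0.48) or without MCD replicate 8 (-0.49).

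How far down the 4 lower genes were depended on library scaling, as the TMM factors differed between the diets. With total counts alone, the median log2FC of all genes moved up by 0.37, and 84.3% of all called genes were then higher in MCD livers against 50.2% with TMM. On that scale none of the 4 passed: Ttr was at -0.43 (edgeR FDR 2.61e-04), Rdh10 at -0.47 (1.16e-04), Lrat at -0.60 (0.0107) and Bco1 at -0.24 (0.183), each still below 0 and below the all-gene median of 0.27. With upper-quartile factors, which moved the median by 0.15, Bco1 was the only member to lose its call (-0.44, edgeR FDR 0.0135). Cyp26a1 was called under all 4 scalings, at 2.12 to 2.47, and the log2FC of Aldh1a2 ran from 4.48 to 4.85. Per library total, the separation of the diets ended for Ttr and Rdh10 and remained for Aldh1a2, beside 18.2% of all genes tested, 17.5% higher and 0.688% lower. Rbp4 changed sign with total counts (0.20), and Aldh1a1 changed sign with total counts (0.28) and upper-quartile factors (0.048), without passing the threshold. Dhrs3 was at 0.46 with total counts (edgeR FDR 0.00116), short of the fold limit.

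**Figure D3:**
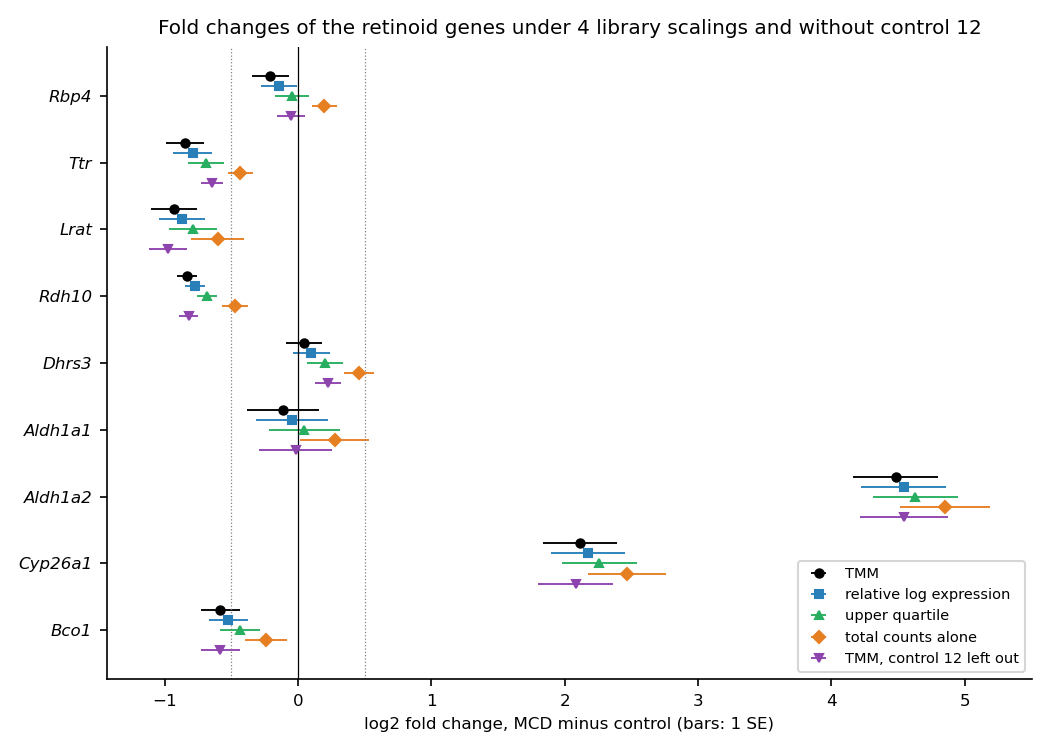
Log2 fold change of MCD over control (x axis, bars 1 SE) for each gene under TMM, relative log expression, upper-quartile and total-count scaling and with TMM without control replicate 12; dotted lines mark -0.5 and 0.5. The points of Ttr, Lrat, Rdh10 and Bco1 stay left of 0 and move right with total counts, to -0.43, -0.60, -0.47 and -0.24, while Aldh1a2 and Cyp26a1 stay above 2.

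Levels of different genes were compared as mean CPM per kilobase of the longest annotated transcript. In control livers the order was Ttr (4828), Rbp4 (2787), Aldh1a1 (395), Dhrs3 (63.8), Rdh10 (8.90), Bco1 (3.74), Lrat (3.64), Cyp26a1 (1.58) and Aldh1a2 (0.0519). Neighbours overlapped in range for Ttr and Rbp4, for Aldh1a1 and Dhrs3, for Bco1 and Lrat, and for Lrat and Cyp26a1. In MCD livers the order was Ttr (2684), Rbp4 (2415), Aldh1a1 (367), Dhrs3 (65.8), Cyp26a1 (6.84), Rdh10 (5.0), Bco1 (2.51), Lrat (1.92) and Aldh1a2 (1.24). Cyp26a1 thus moved from the eighth to the fifth place, although its MCD range overlapped that of Rdh10, and the ranges of Ttr and Rbp4, and of all neighbours among the last 5 genes, overlapped. The carriers made up the greater part of the transcript of these 9 genes under both diets.

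A wider list of 48 vitamin A pathway genes put these values in context. All 48 were in the table and 36 were abundant enough to test, of which 5 were higher, 12 lower and 19 not called, beside the 38.3% called of all genes tested. The low-count filter was passed by Dhrs9, among the 5, in MCD livers alone. Pnpla3, among the 12, passed it in control livers alone, so both calls are descriptions. Their median log2FC was -0.33 against -0.10 for all genes tested. In 1 higher and 4 lower of the 36 the groups did not overlap, a share close to the 14.4% of all genes tested. The 12 untested genes, such as the retinol transporter gene Stra6 and the retinoic acid binding protein genes Crabp1 and Crabp2, were near 0 in both diets, and Stra8 had no read in any library.

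Among the binding and uptake genes, Stra6l, which encodes the liver's receptor for RBP4, was lower in all 12 MCD livers than in any control liver, at 122 ± 10.5 and 80.3 ± 8.99 CPM (SD, n = 12 each; log2FC -0.60, SE 0.07, edgeR FDR 2.05e-08). The Stra6l call was lost with upper-quartile factors (-0.45) and with total counts (-0.25, edgeR FDR 0.0164).

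The enzymes that handle stored or circulating esters moved in both directions. Lpl, lipoprotein lipase, which can also release retinol from the esters of lipoproteins, was higher in every MCD liver than in any control liver, with 24 ± 23.6 and 221 ± 37.6 CPM (SD, n = 12 each; log2FC 3.20, SE 0.32, edgeR FDR 2.75e-09). Pnpla3, a retinyl-palmitate lipase of HSCs and hepatocytes, was at 0.622, 3.75 and 24.3 CPM in control and 0.0468, 0.169 and 0.928 CPM in MCD livers. It was below every control liver in 11 of 12 MCD livers (log2FC -4.63, SE 0.58). Its MCD median was near the floor of 3 counts, and only 2 MCD libraries reached the cutoff of the low-count filter against 12 control libraries, so this value too is a description. Lipe, hormone-sensitive lipase, was lower (-0.60, edgeR FDR 0.00181) but lost its call without control replicate 12 (-0.41). Dgat1, an enzyme that can esterify retinol without LRAT, was at -0.06 (edgeR FDR 0.530).

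Of 13 further retinol and retinal enzymes tested, 2 were higher and 4 lower. The higher ones were Rdh9 (0.73, SE 0.16, edgeR FDR 3.45e-04) and Dhrs9 (1.78, SE 0.32), both retinol dehydrogenases. Dhrs9 was at only 0.847 ± 0.610 CPM in control livers (SD, n = 12) and reached the cutoff of the low-count filter in 8 control against 12 MCD libraries, too few in control alone, so its value is a description. Lower were the hepatic retinol dehydrogenases Rdh16 (-1.19) and Rdh7 (-0.68), the retinal reductase Rdh11 (-1.57, also a target of sterol-responsive transcription) and Dhrs4 (-0.54). The Dhrs4 call was the least firm of the list: without control replicate 12 its log2FC was -0.42, and it was also lost when any of MCD replicates 2, 3, 4, 8, 11 or 12 was left out (-0.50 to -0.48). It was lost in 7 of 10 other alternatives too, among them relative log expression factors (-0.48), DESeq2 (-0.48), upper-quartile factors (-0.38) and total counts (-0.15, edgeR FDR 0.0631). Adh1, the most abundant alcohol dehydrogenase of the list, was at -0.50 and did not pass the fold limit.

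Oxidation, breakdown and carotenoid genes other than the 9 were mostly lower or not called. Aldh8a1, which oxidizes 9-cis-retinal among other aldehydes, was lower in all 12 MCD livers than in any control liver, at 258 ± 33.1 and 139 ± 14.8 CPM (SD, n = 12 each; log2FC -0.90, SE 0.08, edgeR FDR 2.52e-10). Bco2, the mitochondrial carotenoid cleavage enzyme, was likewise below every control liver in 12 of 12 MCD livers (-0.73, SE 0.10, edgeR FDR 4.8e-07). Cyp26b1, the Cyp26 enzyme of non-parenchymal cells, had means of 12.9 ± 9.70 and 5.85 ± 2.43 CPM (SD, n = 12 each) and missed the threshold (-1.15, SE 0.39, edgeR FDR 0.0130). The point estimates of the Cyp26 enzymes thus lay on opposite sides of 0, and the difference between them was not tested.

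Among the nuclear receptors, Rara (-0.62, SE 0.11, edgeR FDR 1.52e-05) and Rxra (-0.65, SE 0.10, edgeR FDR 1.73e-06), the latter the prevailing RXR form of hepatocytes, were lower, and Rxra was below every control liver in all 12 MCD livers. The Rara call was lost with upper-quartile factors (-0.46) and with total counts (-0.24, edgeR FDR 0.0460). The Rxra call was lost with total counts (-0.30, edgeR FDR 0.0103). Rarg was higher, at 11 ± 3.35 and 20.4 ± 4.39 CPM (SD, n = 12 each; log2FC 0.90, SE 0.14, edgeR FDR 4.35e-06). Rarb, a receptor gene that retinoic acid itself induces and whose promoter holds the same form of repeat as Cyp26a1, was at 5.30 ± 2.38 and 4.90 ± 1.18 CPM (SD, n = 12 each). Its log2FC was -0.12 (95% confidence interval -0.61 to 0.37, edgeR FDR 0.676). Of the 4 further retinoic acid-responsive genes tested, Nrip1 was lower (-0.56) and lost its call without control replicate 3 or without MCD replicate 2 or 10 (-0.50 to -0.48), and Tgm2, Rarres1 and Rarres2 did not pass. With TMM, Cyp26a1 was the only gene of this kind that rose past the threshold, among Cyp26a1, Dhrs3, Rarb and these 4. Rarres2 (0.46, edgeR FDR 0.0142) and Tgm2 (0.29, edgeR FDR 0.0242) fell short of it. Per library total, 9 MCD livers for Rarres2 and 8 for Tgm2 lay above every control liver, against 0 for Rarres1, Rarb and Nrip1. Whether Rarres2 or Tgm2 was called under other scalings is not given here.

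**Figure D4:**
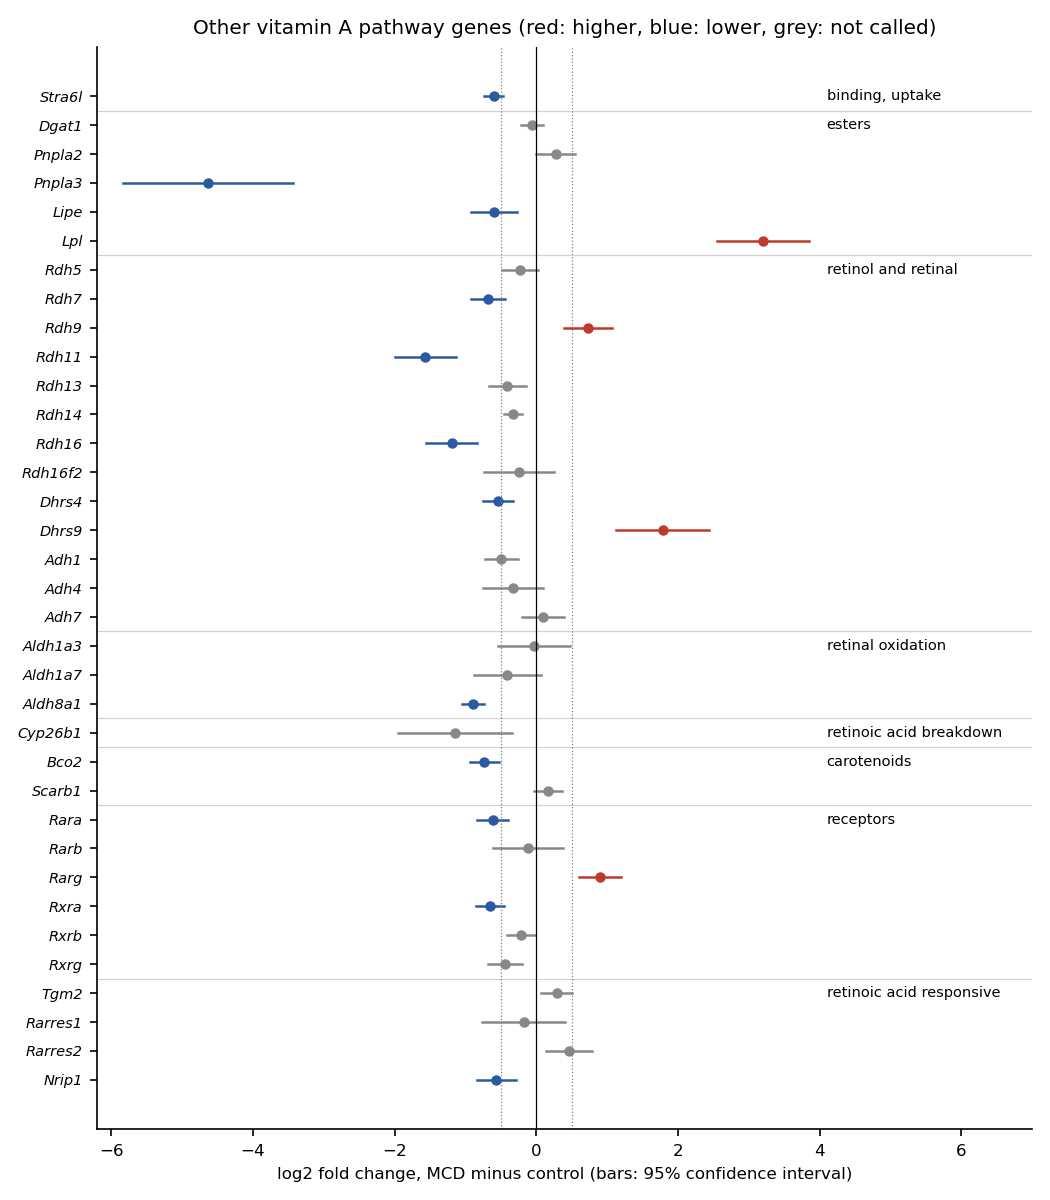
Log2 fold change of MCD over control (x axis, bars 95% confidence interval) for 35 of the 36 tested genes of the wider vitamin A list, grouped by role; dotted lines mark -0.5 and 0.5. The 4 red points (higher) run from 0.73 for Rdh9 to 3.20 for Lpl, and 11 of the 12 blue points (lower) lie between -1.57 and -0.54, with Pnpla3 at -4.63.

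With total counts alone the wider list gave 9 higher and 4 lower genes, Pnpla3, Rdh11, Rdh16 and Aldh8a1 being the lower ones, so that its prevailing direction turned with the scaling. Per library total the diets overlapped for Stra6l, Aldh8a1, Bco2 and Rxra, stayed apart for Lpl and came apart for Dhrs9, with MCD livers higher. On that scale 17.5% of all genes tested were apart with MCD higher and 0.688% with MCD lower. Upper-quartile factors gave 6 higher and 7 lower.

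The tested genes whose pattern was most like that of each member were found among 10111 genes with a mean of at least 5 CPM. Likeness was the lower of 2 Pearson correlations of log2 CPM, 1 over the 12 control and 1 over the 12 MCD livers, so the diet difference itself did not enter, whereas depth, sex and shared hepatocyte content could. Aldh1a1 had the closest partners: Aldh1a7 (r = 0.95 and 0.96 in control and MCD livers), the lipid droplet gene Fitm1 (0.93 and 0.93) and the steroid and fatty acid enzyme gene Hsd17b12 (0.92 and 0.91). These held without control replicate 12 (0.95, 0.96 and 0.99 in the other control livers), with the reads shared between Aldh1a1 and Aldh1a7 as a limit. Rbp4 was most like Mrpl38, Eif5a and Atp5d (lower r 0.91, 0.89 and 0.87), Dhrs3 most like Vps72, Stk11 and Btbd2 (0.88 for each), and Rdh10 most like Ercc6l2, 1190002N15Rik and C730036E19Rik (0.83, 0.81 and 0.81). Without control replicate 12 the control r fell to 0.80, 0.87 and 0.85 for Rbp4, to 0.81, 0.71 and 0.68 for Dhrs3 and to 0.70, 0.70 and 0.74 for Rdh10, and in rank Mrpl38 went from 1 to 25, Stk11 from 2 to 25 and Btbd2 from 3 to 44.

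For Ttr the partners were Proc, Emc8 and Phf7 (lower r 0.81, 0.81 and 0.78), but without control replicate 12 the control value for Proc, which encodes the clotting regulator protein C, fell to 0.25. For Lrat they were Pja2, Rnf20 and Dlg1 (0.79, 0.78 and 0.76), and all 3 rested on that library, with 0.37, 0.28 and 0.04 without it. Cyp26a1 had weaker partners in Snrnp48, Ung and Cyp2c70 (0.68, 0.68 and 0.65), as had Bco1 in Cyp4a31, Nipal1 and Jak1 (0.73, 0.70 and 0.70). Without control replicate 12 the control r was 0.59, 0.89 and 0.64 for the partners of Cyp26a1 and 0.71, 0.58 and 0.72 for those of Bco1. Aldh1a2 had too few control reads for this measure.

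In the GENCODE mouse release 21 annotation of GRCm38, which may differ from the annotation behind the counts, all 9 are protein-coding genes, and no exon of theirs overlaps an exon of another gene on either strand. They lie at chr19:38116629-38125281 (Rbp4, ENSMUSG00000024990, minus strand), chr18:20665280-20674321 (Ttr, ENSMUSG00000061808, plus), chr3:82892579-82903973 (Lrat, ENSMUSG00000028003, minus), chr1:16105774-16133734 (Rdh10, ENSMUSG00000025921, plus) and chr4:144892827-144928209 (Dhrs3, ENSMUSG00000066026, plus). The others lie at chr19:20492715-20643465 (Aldh1a1, ENSMUSG00000053279, plus), chr9:71215789-71296243 (Aldh1a2, ENSMUSG00000013584, plus), chr19:37697798-37701536 (Cyp26a1, ENSMUSG00000024987, plus) and chr8:117095854-117133720 (Bco1, ENSMUSG00000031845, plus). The counts are per gene, and single exons or transcripts were not analysed here.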

How the data were processed

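Trizol was used to extract total RNA, and poly(A) libraries were made from 12 MCD and 12 control livers. The authors deposited raw read counts per Ensembl gene, 1 column per library and not normalized. The submitters' processing notes name STAR 2.7.3a, bcl2fastq and mm10. The study's RNA-Seq methods name a stranded mRNA kit and, for the human reference, STAR with an exon quantification pipeline and PISCES. For the mouse table the counting program, annotation and use of strand are not given in the sources used here, so reads of overlapping or antisense genes may have been shared. Gene symbols were those of GENCODE mouse release 21 for the same identifier; that release lacks 4460 of the 56205 identifiers, and rows without a symbol held 0.0808% of counts.

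Counts were tested in R 4.3.3 with edgeR 4.0.16 (filterByExpr by diet, TMM, quasi-likelihood F test, Benjamini-Hochberg over 14109 genes). The SE is the absolute log2FC divided by the square root of F. CPM are scaled by TMM factors. The scripts were tested on simulated counts with known changes. Libraries held 16388650 to 24915175 counts; with the TMM factors, 3 counts equal 0.109 to 0.227 CPM, so depth in CPM terms was lower in control than in MCD libraries on the whole.

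The 9 genes, the pathway list and the marker lists were chosen with earlier results of these data known, so counts over a list are descriptions and no list was tested. These counts include genes that passed the low-count filter through 1 diet alone, and the marker lists were not sorted by this. All 9 genes were named, and from the wider list those called (1 is counted but not reported here) and the most abundant of a role with none called. Other genes named (Stra6, Crabp1, Crabp2, Stra8, Dgat1, Adh1, Cyp26b1, Rarb and single markers) were added for their role after the values were seen. Alternatives were RLE, upper-quartile or total-count scaling, no low-count filter or at least 10 counts in every library, DESeq2 1.42.0, limma-voom (limma 3.58.1), a replicate block, a sex-linked score as covariate (log2 CPM of Xist minus the mean of Ddx3y, Eif2s3y, Kdm5d and Uty, no library given a sex), other thresholds, and each library left out. Leaving out control replicate 12 and MCD replicate 4 together was added after the data were seen.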

Additional observations from a re-analysis of the deposited data

How the results depend on the processing

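Of the members, 2 were higher and 4 lower in the main analysis. The number lower was 0 with total counts alone and 0 with a log2 limit of 1, and the number higher was 1 when at least 10 counts were required in every library, since Aldh1a2 could not be tested there. Leaving out 1 library at a time gave 2 to 2 higher and 3 to 4 lower members, and 5 to 6 higher and 10 to 13 lower genes of the wider list. That list had 5 higher and 12 lower genes in the main analysis. It had 9 higher and 4 lower with total counts, 7 lower with upper-quartile factors, 9 higher without a low-count filter, and 3 higher and 3 lower with a log2 limit of 1. Rbp4 and Aldh1a1 were not called in any of these analyses, but changed sign in some: Rbp4 to 0.20 with total counts, and Aldh1a1 to 0.28 with total counts, 0.048 with upper-quartile factors, 0.15 with limma-voom, 0.095 with the sex-linked score and 0.016 without control replicate 12 and MCD replicate 4. With 1 library left out, Dhrs3 ran from -0.012 to 0.22, below 0 without control replicate 8 (-0.012) or 11 (-0.0037), and Aldh1a1 from -0.20 to 0.021, above 0 without control replicate 11. Total counts leave out the TMM factors, which differ between the diets. Why single libraries moved these values was not tested.

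No label says what a shared replicate number of a control and an MCD library stands for. The deviations of same-numbered libraries from their group means correlated with a median of 0.33, against -0.13 for other pairs, a hint of shared structure from the data alone. The correlation was above 0.1 in 9 of 12 pairs (range -0.43 to 0.46), not in every pair, and 1 of 12 control libraries correlated best with its own number. A replicate block on this pairing gave 2 higher and 4 lower members and 6 higher and 12 lower genes of the wider list, with Aldh1a1 at 0.14.

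Over all genes, TMM gave 2712 higher and 2688 lower, total counts 4539 and 848, upper-quartile factors 3261 and 1710, a log2 limit of 1 1862 and 686, and FDR 0.05 with no limit on the fold 3742 and 5221. Apart from those that left out 1 library, 225 of 257 values kept their direction and side of the threshold, 25 lost a call and 7 changed sign; of 624 values with 1 library left out, 608, 13 and 3 did. Depth limits Aldh1a2, with 25 reads in all control libraries, and Pnpla3 in MCD livers.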
